A study of Mus musculus with 12 samples.

Results

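The genes described here act in the fusion of myoblasts into muscle fibers and in the repair of the fiber membrane. They are 10 of the 37748 genes in the count table and were chosen by name: 5 genes of fusion (Tmem8c, Gm7325, Cdh15, Jam2 and Jam3) and 5 of membrane repair (Dysf, Myof, Anxa1, Anxa2 and Trim72). Tmem8c is the older symbol of myomaker, and Gm7325 that of myomixer. A filter on low counts left 16679 genes for testing and kept each of the 10, although Tmem8c and Gm7325 passed it only through the groups in which they were high.

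Poly(A) RNA of gastrocnemius muscle was sequenced from 12 mice aged 13 weeks, 3 in each of 4 groups. Control mice were ACTA1-MCM/+, carrying a tamoxifen-dependent Cre that is driven in skeletal muscle fibers, and were given no tamoxifen (mice 1127, 1246 and 1349). FLExD mice were FLExDUX4/+, carrying the conditional human DUX4 transgene without Cre, and were also given no tamoxifen (mice 1358, 1367 and 1378); their labels also read mild pathology. Moderate and severe mice were FLExDUX4/+;MCM/+, carrying both alleles. Moderate mice received 1 intraperitoneal injection of tamoxifen at 5 mg/kg (mice 1236, 1308 and 1331). Severe mice received 2 injections at 10 mg/kg on consecutive days (mice 1047, 1066 and 1079), and both sets of muscles were taken 9 days after tamoxifen. Recombination is mosaic in this model, so a muscle holds fibers with and without active DUX4. Because the control mice had no tamoxifen, effects of tamoxifen and of DUX4 cannot be told apart in the comparisons with them. FLExD and control mice differ both in the DUX4 transgene and in the Cre allele, so these cannot be told apart in their comparison. Severe versus moderate sets both doses against each other, so effects of the tamoxifen dose and of DUX4 cannot be told apart there either. The 3 comparisons with control share the same control mice.

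Skeletal muscle fibers form when myoblasts, the offspring of satellite cells, recognise each other through adhesion proteins and merge their membranes; adult fibers fuse with new myoblasts mainly after injury. Myomaker and myomixer are muscle-specific membrane proteins that carry out the merger itself, while cadherins and junctional adhesion molecules hold the cells together beforehand. Tears in the fiber membrane are closed within moments by calcium-driven vesicle fusion, in which dysferlin, annexins and the TRIM protein of Trim72, also called MG53, gather at the wound, and loss of dysferlin causes a muscular dystrophy in people.

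The libraries held between 23796902 and 29136403 counts per mouse. Levels are given as CPM, counts per 1000000, the rounded count divided by the library size after scaling with trimmed means (TMM), and, where genes are compared with each other, as TPM, transcripts per 1000000, which allow for length. The TMM factors were 0.706 to 0.724 in control mice, 0.708 to 0.760 in FLExD mice, 1.06 to 1.13 in moderate mice and 1.69 to 1.87 in severe mice, so the induced groups differed from the others in the factor itself. A count of 3, taken as the floor of detection, was 0.0676 to 0.155 CPM. Wfdc3, a gene that DUX4 switches on, had counts of 3, 8 and 3 in control mice and 4, 1 and 8 in FLExD mice. It had 2910, 2005 and 2083 counts in moderate mice and 2776, 3574 and 4790 in severe mice, so the induced groups stood apart from the others as labelled. Esr1, whose ligand-binding domain is part of the Cre fusion protein, was at 715, 422 and 819 CPM in control mice and at 29.7, 27.5 and 37.9 CPM in FLExD mice. It was at 95.9, 113 and 124 CPM in moderate mice but at 35.2, 37.4 and 35.6 CPM in severe mice, within the range of the FLExD mice that lack the Cre allele. That holds after TMM scaling; the unscaled counts were 1562, 1586 and 1475 in severe mice and 604, 554 and 786 in FLExD mice, without overlap. Markers of adult muscle fibers were present in all 12 mice.

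Tmem8c, the fusion protein myomaker of myoblasts, had 1, 1 and 4 counts in the control mice and 0, 1 and 3 in the FLExD mice. In moderate mice it had 246, 106 and 201 counts, or 7.76, 3.66 and 6.56 CPM. In severe mice it had 1271, 708 and 1007 counts, or 28.7, 16.7 and 24.3 CPM. The gene was at or next to the floor in the uninduced mice, and the control, moderate and severe groups did not overlap. In bulk RNA, a change in the number of cells of a type cannot be told apart from a change in RNA per cell. Gm7325, the small protein myomixer that acts with myomaker, had 3, 2 and 0 counts in control mice and 1 count in each FLExD mouse. Its counts were 74, 37 and 83 in moderate mice, or 2.33, 1.28 and 2.71 CPM. They were 636, 360 and 438 in severe mice, or 14.3, 8.49 and 10.6 CPM. Both genes had their lowest moderate level in mouse 1308 and their lowest severe level in mouse 1066. Over the summed counts of each group, Tmem8c was 61.7 times as high in moderate as in control mice (95% counting interval 28.2 to 169) and 237 times as high in severe mice (109 to 648). Gm7325 was 26.0 times as high in moderate mice (10.9 to 80.9) and 137 times as high in severe mice (58.5 to 422). Severe mice exceeded moderate mice by a ratio of 3.85 for Tmem8c (3.51 to 4.22) and of 5.27 for Gm7325 (4.53 to 6.15). These intervals pool the mice of a group and cover counting error only, not the spread between mice. The floor covers counting error only as well. Reads copied by PCR are not independent molecules, so even the counting error may be larger.

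In the fit across all genes, the log2 fold change of Tmem8c was 5.87 ± 0.55 (SE) in moderate and 7.83 ± 0.49 in severe versus control mice, and that of Gm7325 was 4.62 ± 0.55 and 7.01 ± 0.46. These are given as a description, with no p-value, because both genes passed the filter only by being high in the induced groups. In severe versus moderate mice, where both groups were well above the floor, Tmem8c was higher by 1.95 ± 0.27 (edgeR, adjusted p = 8.01e-05) and Gm7325 by 2.40 ± 0.27 (edgeR, adjusted p = 1.15e-05). Because the control counts were so low, single control mice moved the size of the fold: without mouse 1349 the moderate log2 fold change was 6.76 for Tmem8c and 4.0 for Gm7325, and the severe one 8.73 and 6.41. Without control mouse 1127, Gm7325 stood at 5.32 in moderate and 7.73 in severe mice. The method moved the size as well. With limma on log2(TPM + 1), Tmem8c was at 2.88 in moderate and 5.41 in severe mice, and Gm7325 at 2.21 and 5.10. The 1 added there exceeds the control means of 0.207 TPM for Tmem8c and 0.423 TPM for Gm7325, which by itself makes these folds smaller. Library size alone gave 6.46 and 9.11 for Tmem8c, and 5.19 and 8.29 for Gm7325. No fold is given for FLExD versus control, where neither gene exceeded 4 counts in a mouse.

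**Figure D1:**
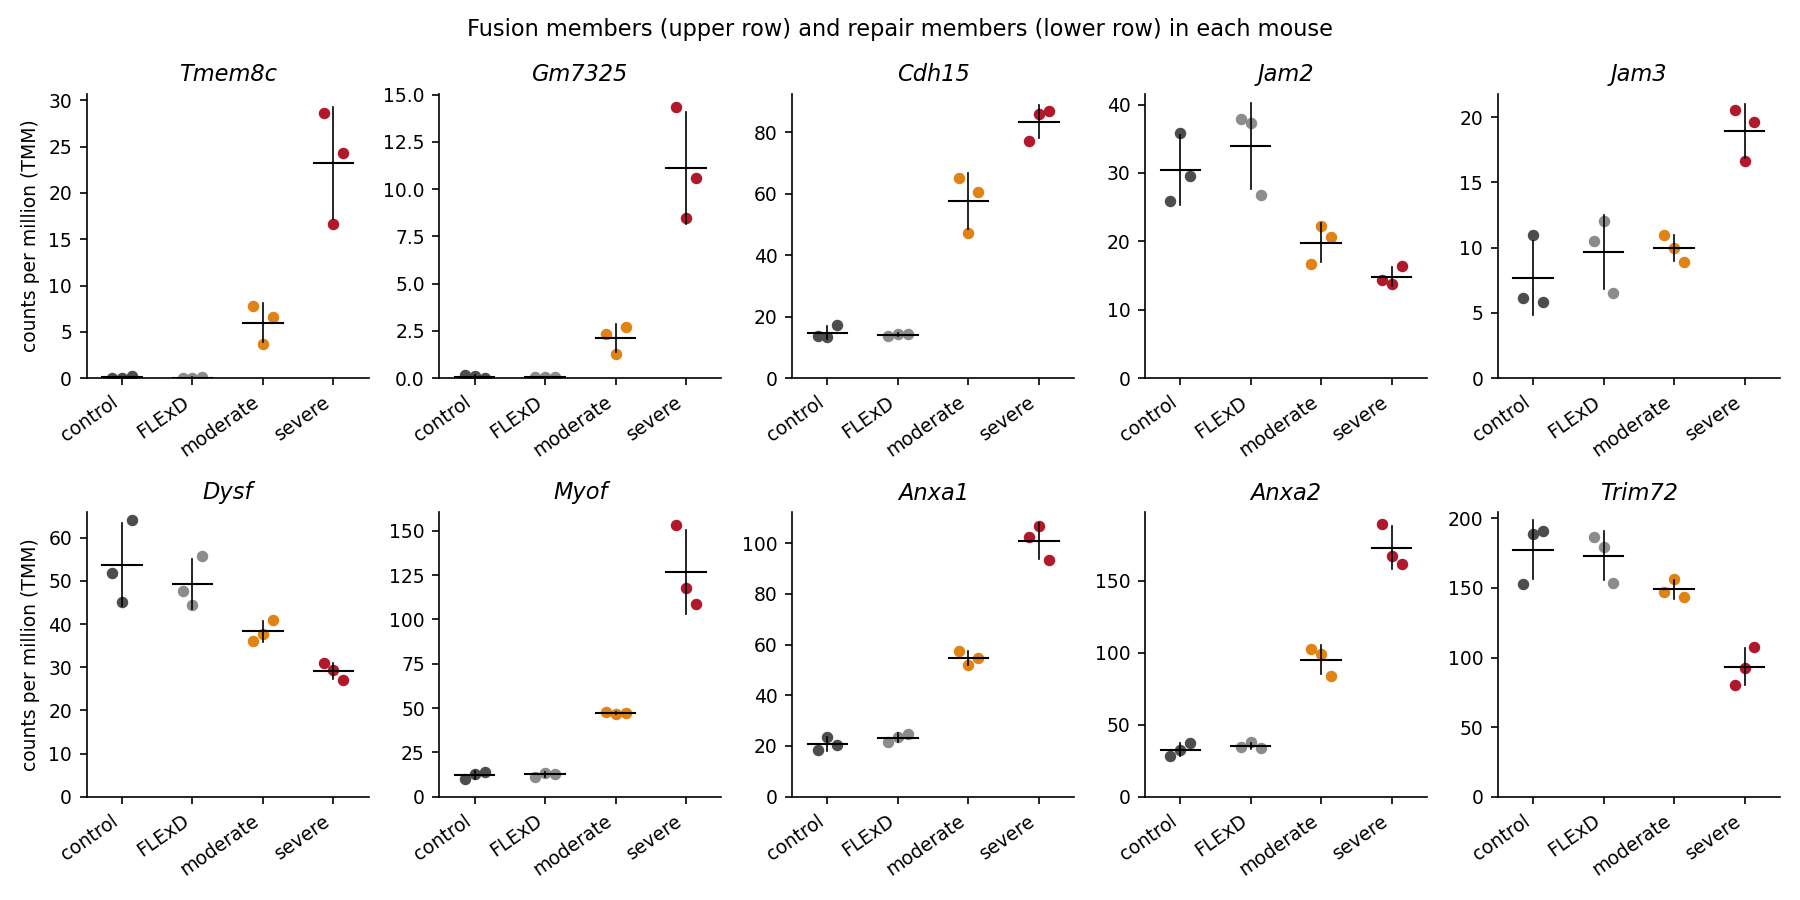
CPM of the 10 members in each mouse (points), with the group mean (horizontal line) and 1 SD (vertical line), 3 mice per group, each panel on its own linear axis from 0. Tmem8c and Gm7325 lay near 0 in control and FLExD mice and at 16.7 to 28.7 and 8.49 to 14.3 CPM in severe mice, and Jam2, Dysf and Trim72 were lowest in severe mice on this scale, a direction that turned under library size alone or TPM.

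Cdh15 encodes M-cadherin, the adhesion protein of satellite cells and myoblasts. It was at 13.8, 13.4 and 17.4 CPM in control mice and at 13.6, 14.4 and 14.4 CPM in FLExD mice. In moderate mice it was at 65.0, 47.4 and 60.6 CPM and in severe mice at 77.2, 85.9 and 87.1 CPM. Every moderate mouse was above every uninduced mouse and below every severe mouse. Cdh15 rose in moderate mice, with a log2 fold change of 1.96 ± 0.13 (edgeR, adjusted p = 2.89e-08), and in severe mice, with 2.49 ± 0.13 (edgeR, adjusted p = 7.65e-10). Severe exceeded moderate mice by 0.53 ± 0.12 (edgeR, adjusted p = 0.00183), close to the threshold of 0.5, and the call was lost without moderate mouse 1308 (0.40) or severe mouse 1079 (0.498). With library size alone the difference was 1.23 and with limma on TPM 1.24.

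Jam2 and Jam3 encode junctional adhesion molecules that bind each other across neighbouring cells. Jam3 was at 6.17, 11 and 5.88 CPM in control mice, 10.5, 12 and 6.51 CPM in FLExD mice and 10.9, 10.0 and 8.94 CPM in moderate mice. In severe mice it was at 20.6, 16.7 and 19.6 CPM. Control, FLExD and moderate mice overlapped, and the severe mice were above all of them. Jam3 rose in severe versus control mice by 1.30 ± 0.24 (edgeR, adjusted p = 3.28e-04) and in severe versus moderate mice by 0.93 ± 0.23 (edgeR, adjusted p = 0.00495). In moderate versus control mice its log2 fold change was 0.37 ± 0.25 (edgeR, adjusted p = 0.219), which did not pass; without control mouse 1246, the highest of its group, it was 0.70 and passed (edgeR, adjusted p = 0.0146; range over all alternatives 0.00243 to 0.595). It also passed with library size alone (0.98) and with limma on TPM (0.77).

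Jam2 was at 25.9, 35.9 and 29.5 CPM in control mice and at 37.9, 37.3 and 26.7 CPM in FLExD mice. It was at 16.7, 22.2 and 20.6 CPM in moderate mice and at 14.4, 13.8 and 16.4 CPM in severe mice. On this scale the moderate and severe mice lay below every control mouse, whereas Jam3 was higher than in control mice in the severe group. The log2 fold change was -0.62 ± 0.15 in moderate mice (edgeR, adjusted p = 0.00406) and -1.03 ± 0.16 in severe mice (edgeR, adjusted p = 4.0e-05), but it was -0.02 and 0.27 with library size alone and -0.15 and 0.21 with TPM, so the direction in severe mice turned with the scaling. Severe versus moderate mice differed by -0.42 ± 0.15 (edgeR, adjusted p = 0.038), below the fold threshold and again turned by library size alone (0.28) and TPM (0.36); without moderate mouse 1236 it was -0.53 and passed.

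The ferlins are large membrane proteins with calcium-binding C2 domains, dysferlin acting in adult fibers and myoferlin, the product of Myof, mainly in myoblasts. Myof was at 9.74, 12.8 and 13.8 CPM in control mice, 11.2, 13.6 and 12.9 CPM in FLExD mice and 47.9, 46.4 and 47.4 CPM in moderate mice. In severe mice it was at 153, 118 and 109 CPM. The 3 moderate mice were within a narrow band, and no severe mouse overlapped them. Myof rose by 1.96 ± 0.14 in moderate mice (edgeR, adjusted p = 1.0e-07) and 3.38 ± 0.15 in severe mice (edgeR, adjusted p = 2.34e-10), and severe exceeded moderate mice by 1.42 ± 0.14 (edgeR, adjusted p = 3.22e-06).

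Dysf was at 51.9, 45.1 and 64.1 CPM in control mice and at 47.7, 44.4 and 55.7 CPM in FLExD mice. It was at 36.1, 37.8 and 41.0 CPM in moderate mice and at 30.9, 29.5 and 27.0 CPM in severe mice. On this scale every induced mouse lay below every control mouse. The log2 fold change in severe versus control mice was -0.88 ± 0.12 (edgeR, adjusted p = 1.44e-05), and it turned to 0.42 with library size alone and 0.30 with TPM. In moderate versus control mice it was -0.49 ± 0.12 (edgeR, adjusted p = 0.00363), just short of the fold threshold; it turned to 0.12 with library size alone and was 0.00 with TPM. That call was gained without control mouse 1127 (-0.54), control mouse 1246 (-0.63) or moderate mouse 1331 (-0.57). Severe versus moderate mice differed by -0.39 ± 0.12 (edgeR, adjusted p = 0.0144), under the fold threshold, and by 0.31 with library size alone and 0.29 with TPM.

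Trim72, the protein that gathers vesicles at a membrane tear, was at 153, 189 and 191 CPM in control mice and 187, 180 and 153 CPM in FLExD mice. It was at 147, 156 and 143 CPM in moderate mice and at 80.5, 92.4 and 107 CPM in severe mice. Moderate mice overlapped control mice and severe mice did not. The log2 fold change was -0.93 ± 0.12 in severe versus control mice (edgeR, adjusted p = 1.0e-05) and -0.67 ± 0.12 in severe versus moderate mice (edgeR, adjusted p = 4.44e-04), turning to 0.37 and 0.02 with library size alone and to 0.26 and 0.04 with TPM. In moderate versus control mice it was -0.25 ± 0.12 (edgeR, adjusted p = 0.0958), which did not pass, and 0.35 with library size alone and 0.22 with TPM.

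Because Myof stood apart from Dysf and Trim72, the 250 bases before their RefSeq starts are shown. They are RefSeq sequence of GRCm38.p6, 5′ to 3′ on the strand of the gene; 6 members had an entry (Cdh15, Dysf, Myof, Anxa1, Anxa2 and Trim72), Dysf with 2 starts. Capitals mark the motifs searched on both strands: the E-box CANNTG, the site AP-1 written TGANTCA, the MCAT element CATTCC and the GC box GGGCGG. The windows lie at chr19:38043578-38043827 (minus strand) for Myof, chr6:84008348-84008597 and chr6:84019136-84019385 (plus strand) for Dysf and chr7:128004128-128004377 (plus strand) for Trim72. The windows of Trim72 and of Dysf start 2 lie inside the span of the gene in the GENCODE annotation, downstream of an earlier start.
Myof: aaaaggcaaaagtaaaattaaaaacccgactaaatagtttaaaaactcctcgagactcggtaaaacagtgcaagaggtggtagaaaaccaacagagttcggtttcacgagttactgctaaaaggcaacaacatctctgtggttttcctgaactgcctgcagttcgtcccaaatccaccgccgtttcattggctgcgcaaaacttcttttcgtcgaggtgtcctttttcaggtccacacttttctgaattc
Dysf, start 1: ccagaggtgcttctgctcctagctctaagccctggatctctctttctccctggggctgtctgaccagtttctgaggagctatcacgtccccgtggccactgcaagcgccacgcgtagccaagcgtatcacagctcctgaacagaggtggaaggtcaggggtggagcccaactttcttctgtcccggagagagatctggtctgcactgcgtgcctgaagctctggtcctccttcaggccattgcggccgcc
Dysf, start 2: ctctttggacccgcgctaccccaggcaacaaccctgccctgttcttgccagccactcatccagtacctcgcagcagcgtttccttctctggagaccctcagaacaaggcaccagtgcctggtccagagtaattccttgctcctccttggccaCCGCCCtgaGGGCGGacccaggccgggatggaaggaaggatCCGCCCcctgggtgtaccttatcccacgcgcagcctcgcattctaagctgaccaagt
Trim72: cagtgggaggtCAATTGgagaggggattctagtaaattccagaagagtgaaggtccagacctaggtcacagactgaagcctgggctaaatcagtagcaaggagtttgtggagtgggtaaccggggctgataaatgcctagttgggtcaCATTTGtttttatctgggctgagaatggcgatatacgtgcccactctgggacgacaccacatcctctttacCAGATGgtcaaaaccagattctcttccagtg
Among all 32851 windows of this length, 66.2% held an E-box, 6.7% an AP-1 site, 12.6% an MCAT element and 32.7% a GC box. The Trim72 window held 3 E-boxes, the window of Dysf start 2 held 3 GC boxes, and those of Myof and Dysf start 1 held none of the 4 motifs. Of the windows not printed, that of Cdh15 held 3 E-boxes and 3 GC boxes, that of Anxa2 held 1 AP-1 site and 3 GC boxes and that of Anxa1 held 1 MCAT element. The Cdh15 and Anxa1 windows also lie inside the gene span, with all 250 bases in annotated untranslated sequence. A match is a description of the letters, and binding was not measured.

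Annexins bind membrane phospholipids when calcium rises. Anxa1 was at 18.3, 23.6 and 20.2 CPM in control mice, 21.4, 23.7 and 24.8 CPM in FLExD mice and 57.4, 52.0 and 54.8 CPM in moderate mice. In severe mice it was at 102, 107 and 93.2 CPM. The moderate and severe mice overlapped neither each other nor the uninduced mice. Anxa1 rose by 1.40 ± 0.10 in moderate mice (edgeR, adjusted p = 7.99e-08) and 2.28 ± 0.10 in severe mice (edgeR, adjusted p = 2.63e-10), and severe exceeded moderate mice by 0.88 ± 0.10 (edgeR, adjusted p = 8.94e-06). Anxa2, the annexin that pairs with S100a10, was at 28.2, 32.7 and 37.1 CPM in control mice and 34.3, 37.9 and 33.7 CPM in FLExD mice. It was at 103, 99.4 and 83.9 CPM in moderate mice and 190, 167 and 162 CPM in severe mice, again without overlap between induced groups. Anxa2 rose by 1.55 ± 0.12 in moderate mice (edgeR, adjusted p = 1.08e-07) and 2.41 ± 0.12 in severe mice (edgeR, adjusted p = 5.17e-10), and severe exceeded moderate mice by 0.86 ± 0.11 (edgeR, adjusted p = 3.06e-05).

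**Figure D2:**
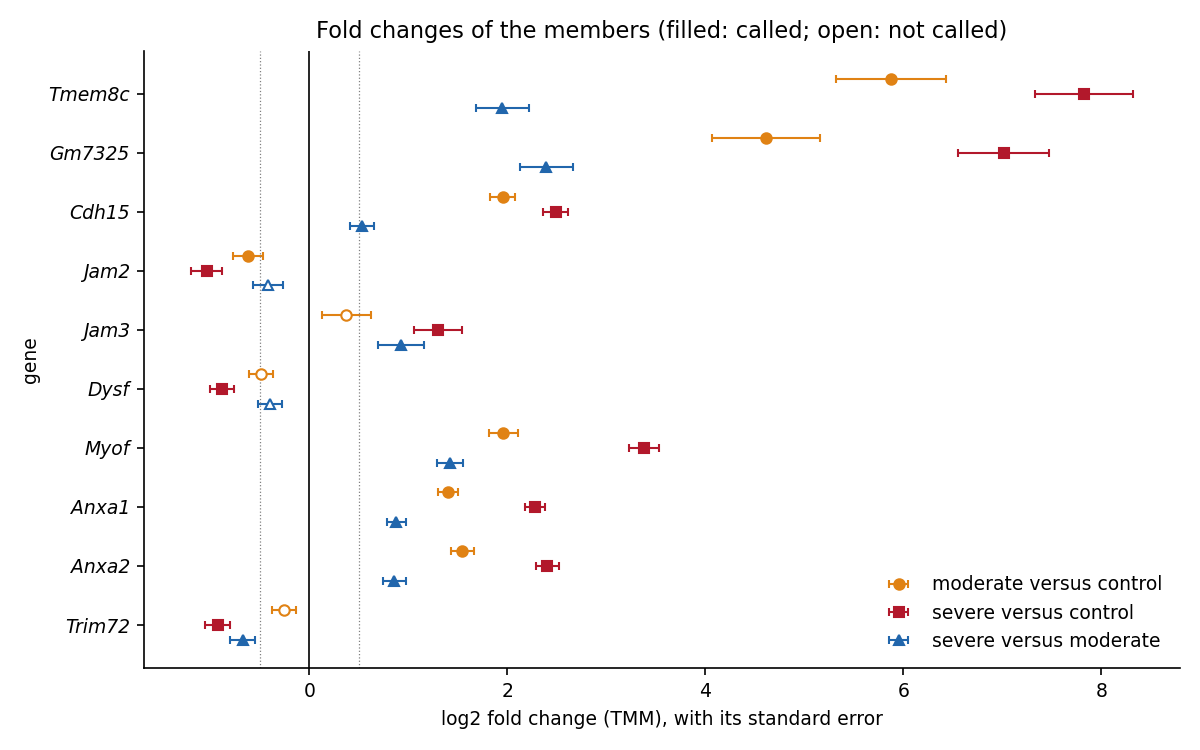
Log2 fold change of each member with its standard error (bars) for both induced groups against control and for severe against moderate mice, 3 mice per group, after TMM scaling; filled symbols passed both thresholds, open symbols did not, and dotted lines mark the fold threshold of 0.5. Tmem8c reached 7.83 and Myof 3.38 in severe mice, whereas Jam2, Dysf and Trim72 lay at -1.03, -0.88 and -0.93, values that turned above 0 under library size alone or TPM.

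Calls needed both an adjusted p below 0.05 and a log2 fold change of 0.5 or more in either direction. In FLExD versus control mice, 0 of the 10 members were called higher (0.0% of all genes tested) and 0 lower (0.006%) by edgeR; 0 of the 10, beside 638 of all genes, had an unadjusted p under 0.05, and 0 were called by DESeq2 or limma. The 8 members above the floor had log2 fold changes from -0.12 to 0.33 there, with a median of 0.08, and -0.00 over all genes. In moderate versus control mice, 6 members were called higher (24.4% of all genes tested) and 1 lower (17.0%), and 3 were not called; without Tmem8c and Gm7325, which had to differ from control to pass the filter, it was 4 and 1 of 8. Their median log2 fold change was 1.47, or 0.89 without Tmem8c and Gm7325, and that of all genes was 0.04. In severe versus control mice, 7 were called higher (32.9%) and 3 lower (27.9%), or 5 and 3 of 8 without Tmem8c and Gm7325, with a median of 2.34, or 1.79 without Tmem8c and Gm7325, beside 0.08 for all genes. In severe versus moderate mice, 7 were called higher (17.6%), 1 lower (18.8%) and 2 were not called, with a median of 0.87, or 0.70 without Tmem8c and Gm7325, beside 0.02 for all genes. The members were chosen for their roles and the lower calls were few, so these shares are a description. The adjusted p-values reflect the spread between mice, and a value that missed the threshold does not show that the groups were alike.

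The direction of the lower members depended on how libraries were scaled. With library size alone the median of all genes moved to 0.65 in moderate versus control, 1.39 in severe versus control and 0.72 in severe versus moderate mice. With limma on TPM it moved to 0.29, 0.79 and 0.49. Under both, 0 members were called lower in these comparisons in place of 1, 3 and 1, while those higher numbered 7, 7 and 7. Of all 16679 genes, library size alone called 8764, 12580 and 9648 higher and 752, 1070 and 823 lower in the same comparisons, and limma on TPM called 5258, 10690 and 8038 higher and 738, 989 and 632 lower. In severe versus control mice Jam2 (0.27), Dysf (0.42) and Trim72 (0.37) still lay below that median with library size alone, and below the median of 0.79 with TPM (0.21, 0.30 and 0.26). Their unscaled counts summed over each group were 1867 in control and 1902 in severe mice for Jam2, 3290 and 3736 for Dysf and 10893 and 11927 for Trim72. In these 3 comparisons Tmem8c, Gm7325, Cdh15, Jam3, Myof, Anxa1 and Anxa2 lay above the median of all genes under each scaling.

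**Figure D3:**
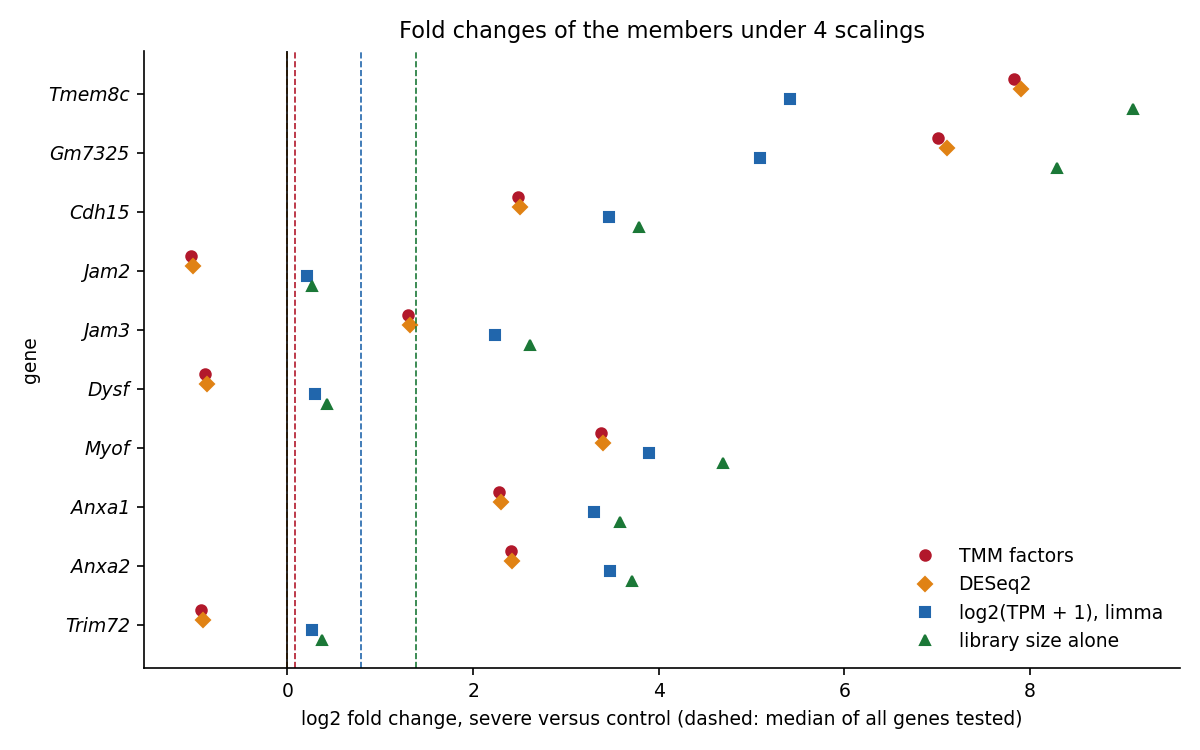
Log2 fold change of each member in severe versus control mice, 3 mice per group, under 4 scalings (symbols), with the median of all genes tested under each (dashed lines). Jam2, Dysf and Trim72 were below 0 with TMM and DESeq2 but above 0 with TPM and library size alone, and lay left of the median line of the same scaling throughout.

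Per length, the order of the members changed between groups. In control mice Trim72 led with a mean of 74.0 TPM ± 10.5 (SD, n = 3), followed by Anxa2 at 22.8 ± 3.60 TPM and Anxa1 at 15.1 ± 1.88 TPM, each without overlap with the next. Jam2 (8.33 TPM), Dysf (7.39 TPM), Cdh15 (5.12 TPM) and Jam3 (3.99 TPM) followed, neighbours in this order overlapping. Myof stood at 1.71 TPM, and Gm7325 (0.423 TPM) and Tmem8c (0.207 TPM), which overlapped, were last; a mouse with 0 counts of Gm7325 is listed at 0.27 TPM and one with 0 counts of Tmem8c at 0.09 TPM, so TPM values this low do not show expression. FLExD mice had the same leading genes, with Trim72 at 72.0, Anxa2 at 23.5 and Anxa1 at 17.5 TPM. In moderate mice Anxa2 (88.3 TPM) and Trim72 (86.1 TPM) overlapped at the top, Anxa1 was at 51.8 TPM and Cdh15 at 27.5 TPM, and the other 6 lay between 5.71 and 9.03 TPM, each overlapping its neighbour. In severe mice Anxa2 led at 263 ± 39.2 TPM, followed by Anxa1 at 159 ± 16.1 TPM and Trim72 at 88.3 ± 6.80 TPM, without overlap. Cdh15 (66.0 TPM), Tmem8c (51.4 TPM), Gm7325 (48.7 TPM) and Myof (39.8 TPM) came next with overlapping neighbours, then Jam3 at 21.9 TPM, and Jam2 (9.74 TPM) and Dysf (9.26 TPM) overlapped at the bottom. Myomaker and myomixer transcripts thus moved from the last places to levels near that of M-cadherin.

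**Figure D4:**
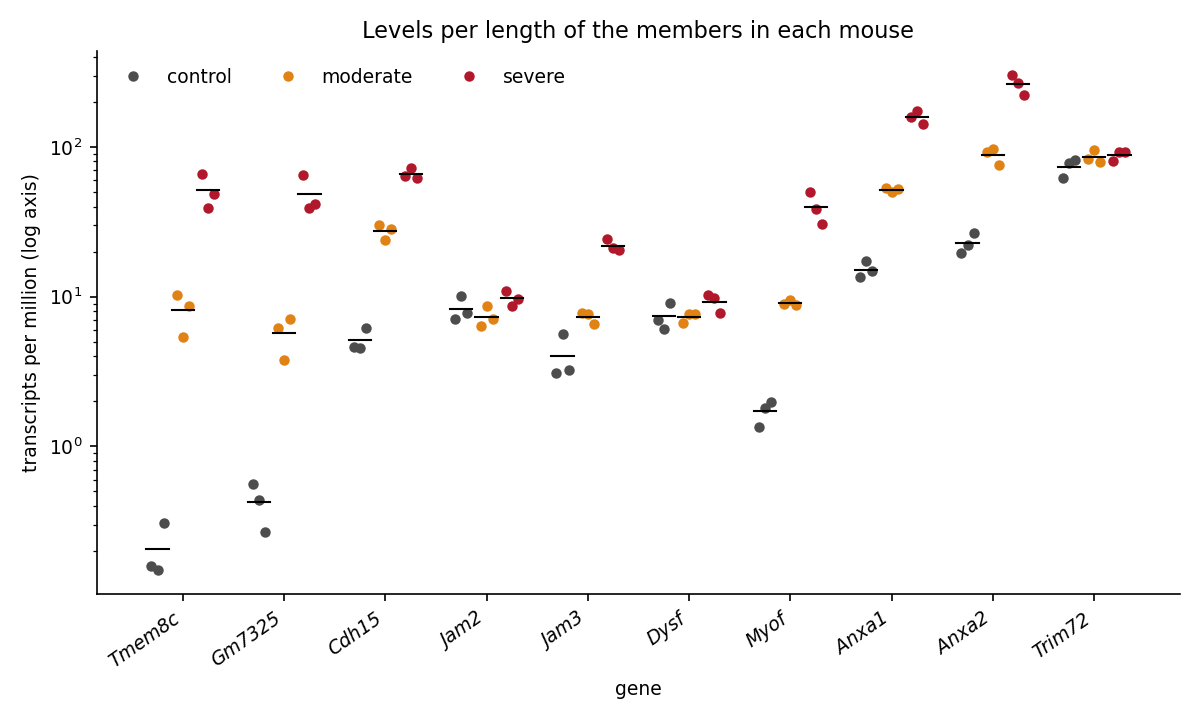
TPM of the 10 members in each control, moderate and severe mouse (points) with the group mean (line), 3 mice per group, on a log axis. Tmem8c and Gm7325 moved from means of 0.207 and 0.423 to 51.4 and 48.7 TPM, while Trim72, Dysf and Jam2 kept means of 74.0 to 88.3, 7.33 to 9.26 and 7.36 to 9.74 TPM on this scale.

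A ratio of counts of both genes within a mouse needs no scaling between libraries. There were 6 ratios in 4 comparisons, or 24 tests; an exact two-sided permutation test of 3 against 3 mice cannot go below p = 0.10, and the smallest adjusted value was 0.267. The Myof to Dysf ratio was 0.188, 0.284 and 0.216 in control mice, 1.33, 1.23 and 1.16 in moderate mice and 4.97, 3.99 and 4.02 in severe mice. In control mice Dysf had the more counts and in both induced groups Myof had, with no overlap between these 3 groups. FLExD mice, at 0.232 to 0.307, overlapped control mice. The mean log2 ratio was higher by 2.45 in moderate mice and 4.25 in severe mice than in control mice, and by 1.80 in severe than in moderate mice (exact permutation p = 0.10 each, adjusted p = 0.267, higher in 3 of 3 mice). The Jam3 to Jam2 ratio was 0.239, 0.307 and 0.200 in control mice, 0.658, 0.451 and 0.434 in moderate mice and 1.43, 1.21 and 1.2 in severe mice. It rose without overlap across these 3 groups, while FLExD mice, at 0.244 to 0.324, overlapped control mice. Severe mice alone held more Jam3 than Jam2 counts. The mean log2 ratio differed from control by 1.05 in moderate and 2.38 in severe mice, and by 1.34 between severe and moderate mice (exact permutation p = 0.10 each, adjusted p = 0.267, higher in 3 of 3 mice).

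Of the other ratios, Tmem8c to Gm7325 rests on 0 to 4 counts of each gene in a control or FLExD mouse, so nothing is drawn from its tests against control, which are among the 24. It was 3.31, 2.84 and 2.41 in moderate and 2.0, 1.97 and 2.30 in severe mice, lower in each of the 3 severe mice, with a log2 difference of -0.44 (exact permutation p = 0.10, adjusted p = 0.267). Anxa2 to Anxa1 was between 1.36 and 1.91 in all 12 mice, and the groups overlapped in each comparison (exact permutation p from 0.4 to 0.9). Trim72 to Dysf was between 2.61 and 4.18 in all 12 mice, with overlap in each comparison (exact permutation p from 0.2 to 1.0). Cdh15 was also set against Pax7, the transcription factor of satellite cells. This ratio was 10.1, 7.43 and 7.90 in control mice, 11.5, 10.6 and 11.4 in moderate mice and 5.17, 8.77 and 8.41 in severe mice. Moderate mice lay above both other groups, which overlapped. The log2 difference was 0.41 in moderate versus control and -0.62 in severe versus moderate mice (exact permutation p = 0.10 each, adjusted p = 0.267), with ranges over the alternatives of 0.32 to 1.56 and -0.76 to -0.17, and -0.21 in severe versus control mice (exact permutation p = 0.6), which turned to 0.54 with TPM + 0.1 and to 0.03 without severe mouse 1047.

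**Figure D5:**
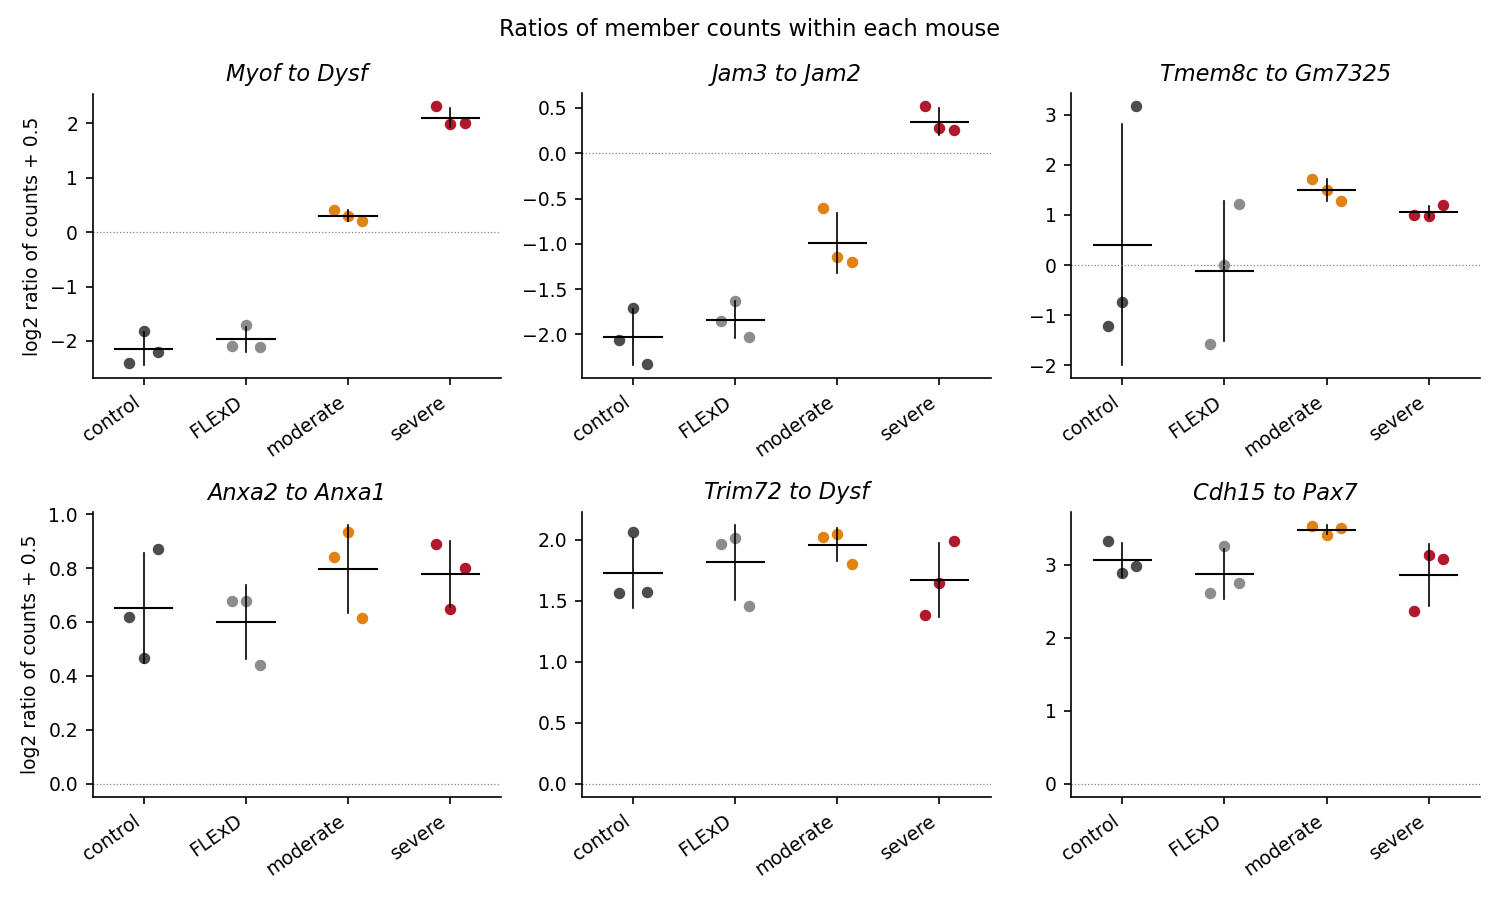
Log2 ratio of the counts (each + 0.5) of pairs of genes within each mouse (points), with the group mean (horizontal line) and 1 SD (vertical line), 3 mice per group; the dotted line marks equal counts. Myof to Dysf and Jam3 to Jam2 passed from below to above 0 between control and severe mice, while Anxa2 to Anxa1 and Trim72 to Dysf overlapped in all groups.

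Genes whose pattern over the 12 mice was most like that of Tmem8c were sought among 13088 genes tested with a mean of at least 50 counts in severe mice, by the root mean square difference of log2 CPM after centring each gene on its control mean. The closest 5 were Ccnb1 (0.48), Mki67 (0.51), Top2a (0.54), Trem2 (0.59) and Hist1h2bk (0.64). For Gm7325 they were Tnnt2 (0.39), E2f8 (0.50), Hist1h1b (0.52), 1300002K09Rik (0.55) and Tlr13 (0.55). Gm7325 ranked 37 for Tmem8c, and Tmem8c ranked 149 for Gm7325, at a difference of 1.06. Ccnb1, for example, was at 0.0477 CPM in control, 4.16 CPM in moderate and 17.8 CPM in severe mice, and Tnnt2 at 1.34, 20.3 and 87.6 CPM. Both fusion genes, Ccnb1 (3 counts summed over the control mice), E2f8 (5) and 1300002K09Rik (0) were at or near the floor in control mice, where single counts set the centre. Hist1h2bk and Hist1h1b are histone genes, and whether they share reads with related genes was not tested.

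Of 23 other genes of cell fusion, 20 were tested; Adgrb1, Adgrb3 and Nphs1 fell under the filter. In severe versus control mice 13 were called higher and 1 lower, beside 32.9% and 27.9% of all genes, with a median log2 fold change of 0.79 beside 0.08; with library size alone 19 were called higher and 1 lower, beside 12580 and 1070 of all 16679 genes. Adam12, a membrane metalloprotease of fusing myoblasts, was at 0.297 CPM in control and 12.5 CPM in severe mice; it is counted among those called, but passed the filter only through the induced groups, so no p-value is given. Cdh2, which encodes N-cadherin, rose by 4.12 ± 0.26 in severe mice (edgeR, adjusted p = 1.18e-08). Stab2, a scavenger receptor that binds phosphatidylserine, fell from 8.76 CPM in control to 0.803 CPM in severe mice, with a log2 fold change of -3.44 ± 0.29 (edgeR, adjusted p = 1.19e-07). In moderate versus control mice 11 were called higher and 1 lower, beside 24.4% and 17.0% of all genes, with a median of 0.61. With library size alone it was 19 and 1, beside 8764 and 752 of all 16679 genes, and with limma on TPM 15 and 1, beside 5258 and 738. In severe versus moderate mice edgeR called 5 higher and 0 lower, with a median of 0.32, against 18 and 0 with library size alone and with limma on TPM. Of all 16679 genes, edgeR called 2943 higher and 3139 lower there, library size alone 9648 and 823, and limma on TPM 8038 and 632. Rac1, a GTPase of the actin cytoskeleton, was called in none of the 4 comparisons after TMM scaling, at 87.8 CPM in control and 80.8 CPM in severe mice, a log2 fold change of -0.12 that turned to 1.19 with library size alone.

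The 26 other genes of membrane repair were all tested. Severe versus control mice had 10 called higher and 10 lower, beside 32.9% and 27.9% of all genes, with a median of -0.30 beside 0.08, but with library size alone 18 were called higher and 2 lower, and with limma on TPM 16 and 2; of all 16679 genes, library size alone called 12580 higher and 1070 lower there, and limma on TPM 10690 and 989. Ano5, a membrane protein whose loss causes a limb-girdle dystrophy, fell by 3.10 (SE 0.13; edgeR, adjusted p = 1.13e-10), from 417 CPM in control to 48.7 CPM in severe mice. Capn3, the muscle calpain, fell by 2.29 (SE 0.20; edgeR, adjusted p = 3.56e-07), and Anxa4 rose by 2.25 ± 0.12 (edgeR, adjusted p = 1.07e-09); these 3 kept their direction under each scaling. In moderate versus control mice 8 were called higher and 5 lower, beside 24.4% and 17.0% of all genes, with a median of 0.08; with library size alone it was 15 and 2, beside 8764 and 752 of all 16679 genes. In severe versus moderate mice the calls were 4 higher and 6 lower, beside 17.6% and 18.8% of all genes, and 16 and 1 with library size alone, beside 9648 and 823 of all genes. Ahnak and Anxa6, at 1614 and 200 CPM in control mice, were called in no comparison after TMM scaling, and their log2 fold changes in severe mice were 1.49 and 1.10 with library size alone.

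Within the annexin family 11 of 12 genes were tested, all but Anxa13. Severe versus control mice had 8 called higher by edgeR and by DESeq2, 10 by limma on TPM and 11 with library size alone, and 0 lower by each of these, with a median of 2.05 in edgeR. Of all genes tested, edgeR called 32.9% higher and 27.9% lower. Library size alone called 12580 higher and 1070 lower of 16679, and limma on TPM 10690 and 989. For moderate versus control mice edgeR, DESeq2 and limma called 7 higher and 0 lower, with a median of 1.44 in edgeR, and 9 were higher with library size alone. Among all genes, edgeR called 24.4% higher and 17.0% lower there. Library size alone called 8764 higher and 752 lower of 16679, and limma on TPM 5258 and 738. Of those called higher in each comparison with control, 2 (Anxa9 and Anxa10) passed the filter only through the induced groups. Anxa10 had 0 counts in every control and FLExD mouse, 132, 58 and 102 in moderate mice and 19, 70 and 51 in severe mice. Against a floor of 3 counts in each control mouse, it was at least 21.7-fold higher in moderate and at least 7.42-fold higher in severe mice, and the medians of the list were the same with these bounds. It was the annexin called lower in severe versus moderate mice, where 5 were called higher and 1 lower (9 and 0 with library size alone, 7 and 1 with limma on TPM). In that comparison edgeR called 17.6% of all genes higher and 18.8% lower. Library size alone called 9648 higher and 823 lower of 16679, and limma on TPM 8038 and 632. Anxa6, Anxa8 and Anxa11 were called in no comparison on this scale, with log2 fold changes of -0.20, -0.12 and -0.29 in severe mice that turned above 0 with library size alone.

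Of the ferlin family, 4 of 6 genes were tested, and Otof and Fer1l4 were not. Fer1l6 fell from 3.10 CPM in control to 0.633 CPM in moderate and 0.214 CPM in severe mice, a log2 fold change of -3.85 ± 0.38 in severe mice (edgeR, adjusted p = 5.23e-07). Besides Myof, Dysf and Fer1l6, Fer1l5 was at 1.01 CPM in control and 0.619 CPM in severe mice and was not called after TMM scaling, with a log2 fold change of -0.71 in severe mice that turned to 0.58 with library size alone. The calls were 1 higher and 1 lower in moderate (1 and 3 with median-of-ratios factors, 1 and 0 with limma on TPM), and 1 higher and 2 lower in severe versus control mice, the latter becoming 1 and 1 with library size alone and 1 and 0 with limma on TPM. Of all genes tested, edgeR called 24.4% higher and 17.0% lower in moderate, and 32.9% and 27.9% in severe versus control mice. In the latter, library size alone called 12580 higher and 1070 lower of all 16679 genes, and limma on TPM 10690 and 989. In moderate versus control mice median-of-ratios factors called 3952 and 2984 of them, and limma on TPM 5258 and 738.

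The myogenic regulators, which govern the genes of myoblasts and fibers, were all 8 tested. Severe versus control mice had 5 called higher and 3 lower, with a median of 1.45, beside 32.9% and 27.9% of all genes; with library size alone it was 6 and 0, beside 12580 and 1070 of all 16679 genes. For moderate versus control mice edgeR and DESeq2 called 3 higher, limma on TPM 5 and library size alone 6, and each called 0 lower. Among all genes, edgeR called 24.4% higher and 17.0% lower there. Limma on TPM called 5258 higher and 738 lower of 16679, and library size alone 8764 and 752. Myog, the regulator of differentiating myoblasts, rose by 4.65 ± 0.20 in severe mice (edgeR, adjusted p = 4.71e-10), from 3.24 to 81.4 CPM. Pax7 rose by 2.71 ± 0.22 (edgeR, adjusted p = 5.45e-08) and Myf5 by 2.56 ± 0.20 (edgeR, adjusted p = 4.33e-08).

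Whole muscle holds many cell types. Of all genes tested, edgeR called 24.4% higher and 17.0% lower in moderate, and 32.9% and 27.9% in severe versus control mice. With library size alone 8764 and 12580 of all 16679 genes were called higher in these comparisons, and 752 and 1070 lower. Of 5 satellite cell markers, 3 were called higher in moderate and 4 in severe versus control mice, and their summed level was 19.6, 20.2, 35.6 and 69.5 CPM in control, FLExD, moderate and severe mice. Sdc4 was the most abundant of them per length (TPM) in each mouse, while in CPM Vcam1 had the highest mean in both induced groups. Vcam1 was at 4.48 CPM in control, 13.6 CPM in moderate and 33.8 CPM in severe mice, and Sdc4 at 11.9, 13.2 and 17.9 CPM. Vcam1 rose by 2.91 ± 0.14 in severe mice (edgeR, adjusted p = 3.29e-10). Calcr was called in no comparison after TMM scaling. With library size alone it was at 0.88 in moderate and 1.47 in severe mice, near the medians of 0.65 and 1.39 over all genes on that scale. All 4 markers of new fibers were called higher in both, of which Chrng passed the filter only through the induced groups, with summed levels of 24.9, 27.7, 465 and 1610 CPM. Per length (TPM), Myl4 was the most abundant, or Myh3 in severe mice 1047 and 1066, while in CPM Myh3 had the highest mean in each group. Myh3 rose by 6.80 ± 0.36 (edgeR, adjusted p = 5.89e-09) and Myh8 by 6.02 ± 0.22 in severe mice (edgeR, adjusted p = 8.85e-11), and Chrng, at 0 in control mouse 1349 and FLExD mouse 1378, reached 29.7 CPM in severe mice. Of 6 markers of adult fibers, 5 were called lower in moderate and 6 in severe versus control mice, also with library size alone, and their sums were 150112, 129117, 60029 and 12112 CPM. Per length (TPM), Tnnt3 was the most abundant, or Acta1 in severe mouse 1047, while in CPM Myh4 had the highest mean in each group. Pvalb (-4.91 ± 0.27), Ckm (-3.89 ± 0.26) and Myh4 (-3.70 ± 0.33) fell most in severe mice on the log2 scale. What part these shifts have in the levels of the fusion and repair genes was not tested.

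Markers of other cells moved as well. Beside their calls stand 24.4% of all genes called higher and 17.0% lower in moderate, and 32.9% and 27.9% in severe versus control mice. Library size alone called 8764 and 12580 of all 16679 genes higher in these comparisons, and 752 and 1070 lower. All 6 macrophage markers were called higher in moderate and in severe versus control mice, with sums of 70.1, 68.7, 293 and 614 CPM in control, FLExD, moderate and severe mice. Per length (TPM), Mrc1 was the most abundant in uninduced and Cd68 in induced mice, while in CPM Mrc1 had the highest mean in each group. Cd68 rose by 5.31 ± 0.18, Itgam by 4.15 ± 0.15 and Adgre1 by 3.77 ± 0.17 in severe mice. Of the neutrophil markers, Ly6g was at 0 in all 12 mice and 3 of 4 were tested, of which 1 was called higher in moderate and 2 in severe mice (Retnlg and S100a8), but each of the 3 passed the filter only through the induced groups, so these calls support nothing; the sums were 0.922, 0.866, 2.44 and 3.71 CPM, and per length (TPM) S100a8 or S100a9 led in uninduced and Retnlg in induced mice. Of 5 fibroblast markers, 2 were called higher in moderate, and 2 higher and 1 lower in severe mice (5 and 0 with library size alone), with sums of 678, 574, 826 and 1167 CPM. Col1a1, which was not called, was at 239 ± 270 (SD) CPM in control and 802 ± 367 CPM in severe mice, a larger difference than that of the sum. Lum rose by 0.98 ± 0.13 and Pdgfra by 0.68 ± 0.11, and Dcn was at -0.79 ± 0.12, turning to 0.51 with library size alone. Of 6 endothelial markers, 3 were called lower in moderate mice (1 with library size alone) and 6 in severe mice, against 2 higher and 1 lower in severe mice with library size alone; the sums were 175, 192, 121 and 82.1 CPM, and Pecam1 led them per length (TPM). The same sums in TPM were 49.0, 51.3, 49.1 and 58.1, highest in severe mice. Kdr fell by 2.38 (SE 0.23) and by 1.08 with library size alone, while Cdh5 at -1.15 ± 0.14 and Tek at -1.09 ± 0.12 turned to 0.15 and 0.21 with library size alone. Of 4 smooth muscle markers, 2 were called higher and 1 lower in moderate (2 and 0 with library size alone), and 1 higher and 2 lower in severe mice (2 and 1 with library size alone), with sums of 131, 132, 154 and 163 CPM. In TPM these sums were 107, 109, 125 and 265, a larger rise in severe mice than in CPM. In severe mice Acta2 rose by 2.42 ± 0.24, Rgs5 fell by 1.99 (SE 0.15), and Myh11 was at -1.17 ± 0.24, turning to 0.12 with library size alone. Myh11 went the other way in moderate mice, at 0.99 ± 0.24 (edgeR, adjusted p = 0.00411). The part of these cells in the members' levels was not tested.

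The members lie on 8 chromosomes of GRCm38 in the GENCODE M21 annotation, which held 95.3% of the identifiers in the count table and 10 of the 10 members. Tmem8c (ENSMUSG00000009214) lies at chr2:27061636-27072179 and Gm7325 (ENSMUSG00000079471) at chr17:45600971-45602102, both on the minus strand. Cdh15 (ENSMUSG00000031962) lies at chr8:122847966-122867397 and Jam2 (ENSMUSG00000053062) at chr16:84774123-84825928, on the plus strand, and Jam3 (ENSMUSG00000031990) at chr9:27097384-27155421 on the minus strand. Dysf (ENSMUSG00000033788) lies at chr6:84008590-84211060 and Trim72 (ENSMUSG00000042828) at chr7:128003949-128011033, on the plus strand. Myof (ENSMUSG00000048612), at chr19:37899036-38043577, and Anxa1 (ENSMUSG00000024659), at chr19:20373428-20390944, share a chromosome and the minus strand, and Anxa2 (ENSMUSG00000032231) lies at chr9:69453620-69491795 on the plus strand. The library did not mark strand, so reads of a gene and of an antisense partner cannot be told apart. Shared exon bases with antisense genes numbered 1159 for Jam3 (Gm48796), 105 and 352 for Dysf (Gm33024 and Gm15475), 98 for Anxa2 (Gm16144) and 617 for Trim72 (Gm15533), which makes their levels uncertain to that extent. The other 6 members shared no exon bases with another gene. Taken to the 2 decimals of the table, the counts of Dysf were not whole numbers in 12 of 12 mice, those of Jam2 in 5 and those of Jam3 in 1, and those of the other 7 members were whole in each mouse.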

How the data were processed

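Gene tables for 12 gastrocnemius libraries (Illumina, single reads, unstranded) were used. The authors trimmed the reads and made the expected counts with RSEM 1.2.4 and Bowtie on mm10, with TopHat2 2.0.8b for reads left over, against a merged UCSC, Ensembl and MISO annotation. The TPM values deposited by the authors come from the same runs and sum to 1000000 in each mouse within rounding, with no factor between mice. Expected counts were rounded, filtered (filterByExpr) and fitted for all 4 groups together with TMM factors in edgeR 4.0.16 (quasi-likelihood F-test, two-sided, robust), and p-values were adjusted by Benjamini-Hochberg over 16679 genes. DESeq2 1.42.0, limma 3.58.1 on log2(TPM + 1), other factors, filters and thresholds and leaving out each mouse were alternatives. Ratios within a mouse used counts + 0.5 and exact two-sided permutation. R 4.3.3, Python 3.11.15, numpy 2.4.6, pandas 2.3.3, scipy 1.17.1 and matplotlib 3.10.9 were used, and the fits were tested on simulated data. Of each other list, the genes called with the 3 largest changes and those called in no comparison could be named. The members and lists were chosen with earlier results of these data known.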

Additional observations from a re-analysis of the deposited data

How the results depend on the processing

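Of 504 member fold changes under alternatives, 462 kept their direction and their side of the threshold, 16 reversed, 11 gained a call and 15 lost one. Members called higher numbered 4 to 7 in moderate and 5 to 7 in severe versus control mice. Members called lower in moderate versus control mice were 1, and 2 with median-of-ratios factors or no fold threshold, 0 with library size alone, limma on TPM, the pairwise Bayes factor rule or a log2 fold of at least 1. They numbered 1 to 2 with a mouse left out, for example 2 without control 1127. Dysf also gained a lower call without control 1246 or without moderate 1331. In severe versus control mice they were 3, and 0 with library size alone or limma on TPM and 1 with a log2 fold of at least 1. In severe versus moderate mice 7 were higher, and 3 with a log2 fold of at least 1. In that comparison 1 was lower, and 0 with library size alone, limma on TPM, the Bayes factor rule or a log2 fold of at least 1, 3 with no fold threshold and 1 to 2 with a mouse left out (2 without moderate 1236). Of all 16679 genes, a log2 fold of at least 1 called 2648 higher and 1172 lower in moderate versus control mice. It called 3955 and 2928 in severe versus control, and 1356 and 1391 in severe versus moderate mice. The Bayes factor rule called 1304 lower in moderate versus control and 1563 in severe versus moderate mice, and no fold threshold 4156 and 4394.

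With library size alone and limma on TPM, log2 fold changes reversed to 0.12 and 0.0020 for Dysf and 0.35 and 0.22 for Trim72 in moderate versus control mice. In severe versus control mice they reversed to 0.27 and 0.21 for Jam2, 0.42 and 0.30 for Dysf and 0.37 and 0.26 for Trim72, and in severe versus moderate mice to 0.28 and 0.36 for Jam2, 0.31 and 0.29 for Dysf and 0.018 and 0.038 for Trim72. The cause was not tested.

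Log2 ratios also reversed. With a mouse left out, Tmem8c to Gm7325 ran from -1.34 to 0.86 in FLExD versus control mice (0.019 with TPM + 1) and from -0.16 to 2.04 in severe versus control mice, values that rest on 0 to 4 counts of each gene in an uninduced mouse. Anxa2 to Anxa1 ran from -0.15 to 0.055 in FLExD versus control and from -0.11 to 0.052 in severe versus moderate mice. Trim72 to Dysf ran from -0.018 to 0.26 in FLExD versus control and from -0.22 to 0.11 in severe versus control mice. Cdh15 to Pax7 was 0.033 with TPM + 0.1 in FLExD versus control mice, and 0.54 with TPM + 0.1, 1.39 with TPM + 1 and -0.35 to 0.034 with a mouse left out in severe versus control mice. The cause was not tested.

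Tmem8c and Gm7325 were not tested when 10 counts were required in every mouse. The counts of the other lists under other scalings were chosen after seeing the data. With 3 mice per group, small differences could not be detected.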
